A study of Mus musculus with 9 samples.

Results

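The 45 genes described here encode much of the core machinery of DNA replication in mouse cells. Their proteins mark and license origins, activate the helicase, synthesise and join new strands, supply deoxynucleotides, and rebuild chromatin and protect the fork behind them. The genes were taken by gene symbol from a list of replication genes. That list was proposed with earlier results of these data known, so member counts set beside all genes are description and not a test. All 45 were found among the 17266 genes of the deposited table, and 45 of 45 passed the filter on low values, which asked for at least 10 normalized counts in at least 3 libraries and left 13750 genes to test.

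The libraries came from lineage-negative bone marrow cells, the fraction from which mature blood cells have been removed with magnetic beads. The marrow was from untreated female C57B/6 mice aged 6 weeks. Cells were infected with the retroviral vector MigR1, which carries green fluorescent protein (GFP) behind an internal ribosome entry site. The vectors were MigR1-ETV6-NCOA2-IRES-GFP, MigR1-KAT6A-NCOA2-IRES-GFP, or MigR1-IRES-GFP as the empty vector, with 3 libraries per group and 9 in all. ETV6-NCOA2 and KAT6A-NCOA2 are leukaemia fusion proteins that share the NCOA2 coactivator part; both were expressed from the retroviral vector and not from their own loci. All cells were cultured for 5 days in RPMI with IL-3, IL-6 and SCF, sorted for GFP, and profiled by poly-A RNA-seq. The labels do not say whether the libraries of a group came from separate mice or infections, so each p-value speaks only to how much these libraries vary, and that variation may be technical.

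The libraries held 17070291 to 20377795 reads assigned to genes. At the end of culture the groups were not of 1 cell type: summed macrophage markers (10 genes) lay at 243587 to 284015 normalized counts with ETV6-NCOA2, 284793 to 310448 with KAT6A-NCOA2 and 267709 to 270289 with empty vector. The 8 stem and progenitor markers summed to 11560 to 17038 with ETV6-NCOA2, 7479 to 10769 with KAT6A-NCOA2 and 16973 to 23886 with empty vector, while 5 T and B cell markers summed to 53.8 to 112.3 over all libraries. In bulk libraries of this kind, fewer cells of a type and less RNA per cell cannot be told apart, and a lower replication transcript can reflect either.

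Replication starts at origins bound by the origin recognition complex (ORC). In G1, CDC6 and CDT1 load the MCM2-7 ring onto DNA, and in S phase CDC45 and GINS join it to make the active helicase. Polymerase alpha with primase starts each strand, polymerases epsilon and delta extend it, and the PCNA clamp, loaded by RFC, holds them in place. Many of these genes are classic targets of E2F transcription factors and are transcribed mainly from late G1 to S phase, so in blood cultures their mRNAs are commonly read as a measure of how many cells are cycling.

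Promoter sequences are shown for 4 members, because promoters of replication genes are where E2F and CCAAT-binding factors are known to act and the members moved together in the results that follow. Uhrf1, Mcm5 and Cdc6 had the largest KAT6A-NCOA2 differences among members whose listed promoter held a motif named below. That each holds a match therefore follows from the choice. Tyms lay further below empty vector (-1.64) than Mcm5 and Cdc6, and its listed promoter held none of the motifs. Pcna was the member nearest to no difference. The sequences are from RefSeq (GRCm38.p6) and run from 250 bases before to 50 bases after the listed start of transcription, 5′ to 3′ on the gene's strand. They lie at chr17:56303087-56303386 (plus strand) for Uhrf1, chr8:75109259-75109558 (plus) for Mcm5, chr11:98907901-98908200 (plus) for Cdc6 and chr2:132253131-132253430 (minus) for Pcna. The listed starts of Cdc6 and Pcna lie 350 and 134 bases downstream of the GENCODE starts. The whole Cdc6 window therefore lies inside the annotated gene and holds no base upstream of the GENCODE start. Capitals mark motif matches on either strand. The motifs searched were the E2F forms TTTCCCGC, TTTCGCGC, TTTGCCGC and TTTGGCGC, the CCAAT box CCAAT, and the cell-cycle homology region TTTGAA.
Uhrf1: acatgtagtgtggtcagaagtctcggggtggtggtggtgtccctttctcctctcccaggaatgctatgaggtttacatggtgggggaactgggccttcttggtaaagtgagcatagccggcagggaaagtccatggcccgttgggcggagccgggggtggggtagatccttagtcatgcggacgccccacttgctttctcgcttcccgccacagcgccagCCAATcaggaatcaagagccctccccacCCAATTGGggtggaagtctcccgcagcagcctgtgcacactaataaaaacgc
Mcm5: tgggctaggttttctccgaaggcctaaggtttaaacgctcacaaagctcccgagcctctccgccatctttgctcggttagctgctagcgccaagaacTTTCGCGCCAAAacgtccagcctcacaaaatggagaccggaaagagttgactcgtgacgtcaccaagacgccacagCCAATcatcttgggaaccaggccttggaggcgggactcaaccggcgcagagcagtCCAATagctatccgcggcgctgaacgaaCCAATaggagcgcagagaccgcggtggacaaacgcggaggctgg
Cdc6: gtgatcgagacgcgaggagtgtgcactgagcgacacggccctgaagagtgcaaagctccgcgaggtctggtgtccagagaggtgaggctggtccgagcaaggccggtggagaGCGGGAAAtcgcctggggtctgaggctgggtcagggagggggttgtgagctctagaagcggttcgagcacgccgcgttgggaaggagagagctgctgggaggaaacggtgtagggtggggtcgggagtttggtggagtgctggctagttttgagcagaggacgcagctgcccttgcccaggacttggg
Pcna: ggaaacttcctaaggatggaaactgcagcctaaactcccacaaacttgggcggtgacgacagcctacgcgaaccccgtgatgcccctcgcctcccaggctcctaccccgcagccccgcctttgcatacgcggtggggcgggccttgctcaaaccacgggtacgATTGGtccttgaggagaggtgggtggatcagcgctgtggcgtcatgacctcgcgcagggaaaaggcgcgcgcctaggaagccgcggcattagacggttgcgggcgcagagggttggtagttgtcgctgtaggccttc
In the Mcm5 promoter the capitals of the E2F run hold 2 matches that overlap on opposite strands, and in the Uhrf1 promoter the last capital run holds 2 overlapping CCAAT matches. The Cdc6 window held an E2F match and no CCAAT box, and the Pcna window held a CCAAT box on the minus strand of the printed run and none of the 4 E2F forms. The Uhrf1 window also held none of the 4 E2F forms.

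Promoters were listed for 37 of the 45 members. One of the E2F forms was found in a listed promoter of 15 of those 37, against 704 of the 27025 genes in the promoter table and 2.26% of its 32851 promoters. A CCAAT box was found for 25 of 37 members, against 41.1% of genes and 37.4% of promoters, and TTTGAA for 5 of 37, against 20.2% of genes and 17.9% of promoters. Among tested genes, 10059 of 13750 matched a listed promoter, and of these 4.58% held an E2F form, 42.7% a CCAAT box and 14.7% TTTGAA, beside 40.5%, 67.6% and 13.5% of the 37 members. Tested genes without a listed promoter are left out of these shares, and no difference in shares was tested. A match is a run of letters and not a measured binding site.

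Transcripts of most of the 45 members were lower with KAT6A-NCOA2, while no subunit added to their complexes further below was called lower. Of the 45 members, 43 fell against empty vector, none rose and 2 (Gins3 and Pcna) did not pass the test (limma on log2(value + 1) across all genes, Benjamini-Hochberg adjusted p under 0.05). Over all genes tested, 13.7% were called lower, 11.6% higher and 25.4% were called in either direction. The members' median log2 fold change was -0.93, or 52.4% of the empty vector level, beside 0.02 over all genes tested. By the test, 20 members fell at least 2-fold, against 4.92% of all genes. In 44 members every KAT6A-NCOA2 library lay below every empty vector library, as in 21.7% of all genes.

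With ETV6-NCOA2 the same transcripts sat between the other groups. Against empty vector 11 of 45 members fell, against a background of 1.82% of genes called lower, 1.02% called higher and 2.84% called in either direction, and none rose. All 45 log2 differences were below 0, their median was -0.50 (70.5% of the empty vector level; 0.01 over all genes), and none of the 11 reached 2-fold (0.8% of all genes were called and at least 2-fold lower). The 11 were Mcm3, Mcm4, Mcm6, Mcm7, Orc2, Cdc6, Gins2, Rfc5, Tyms, Rrm1 and Rrm2, and all 11 were also lower with KAT6A-NCOA2. A further 22 members had an unadjusted p under 0.05 without passing the adjusted threshold. The groups did not overlap for 32 members, against 12.5% of all genes. The count of members called lower was 4, 0 and 1 when ETV6-NCOA2 library 1, 2 or 3 was left out (limma; 31 members had an unadjusted p under 0.05 without library 2). It was 14, 7 and 6 without KAT6A-NCOA2 library 1, 2 or 3, and 2, 29 and 0 without empty vector library 1, 2 or 3 (33 with an unadjusted p under 0.05 without library 3). Both comparisons use the same 3 empty vector libraries.

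No member was called higher with either fusion by limma, DESeq2, edgeR or limma-voom, and no member had a positive difference with an unadjusted p under 0.05 in any of these tests. From low to high, the group means ran in the order KAT6A-NCOA2, ETV6-NCOA2, empty vector for 43 members. For 24 members all 3 ETV6-NCOA2 libraries lay wholly between those of the other groups.

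**Figure D1:**
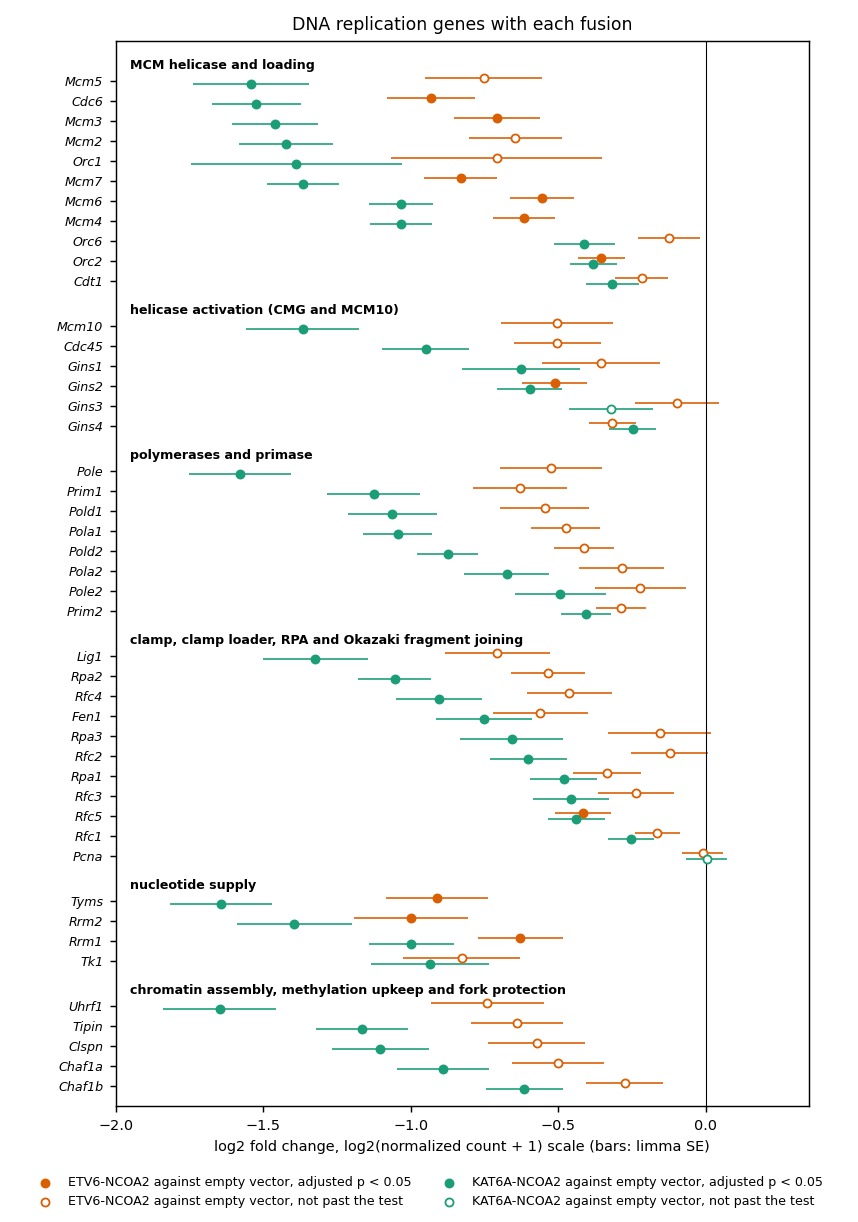
Log2 fold change and standard error of each of the 45 genes, grouped by role, for ETV6-NCOA2 and KAT6A-NCOA2 against empty vector (limma, 3 libraries per group; filled points have an adjusted p under 0.05). The KAT6A-NCOA2 points reach -1.65 (Uhrf1) and the lowest ETV6-NCOA2 point is Rrm2, and both Pcna points lie at 0.

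The libraries of a group were not equally far from the empty vector mean. The mean log2 difference over the 45 members was -0.44, -0.49 and -0.53 in the ETV6-NCOA2 libraries, -0.76, -0.99 and -0.95 in the KAT6A-NCOA2 libraries, and 0.26, -0.22 and -0.04 in the empty vector libraries. Empty vector library 1 was the highest of its group for 44 members and library 2 the lowest for 38. KAT6A-NCOA2 library 1 was the highest of its group for 32 members. The empty vector libraries thus deviated in the same order for most members.

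**Figure D2:**
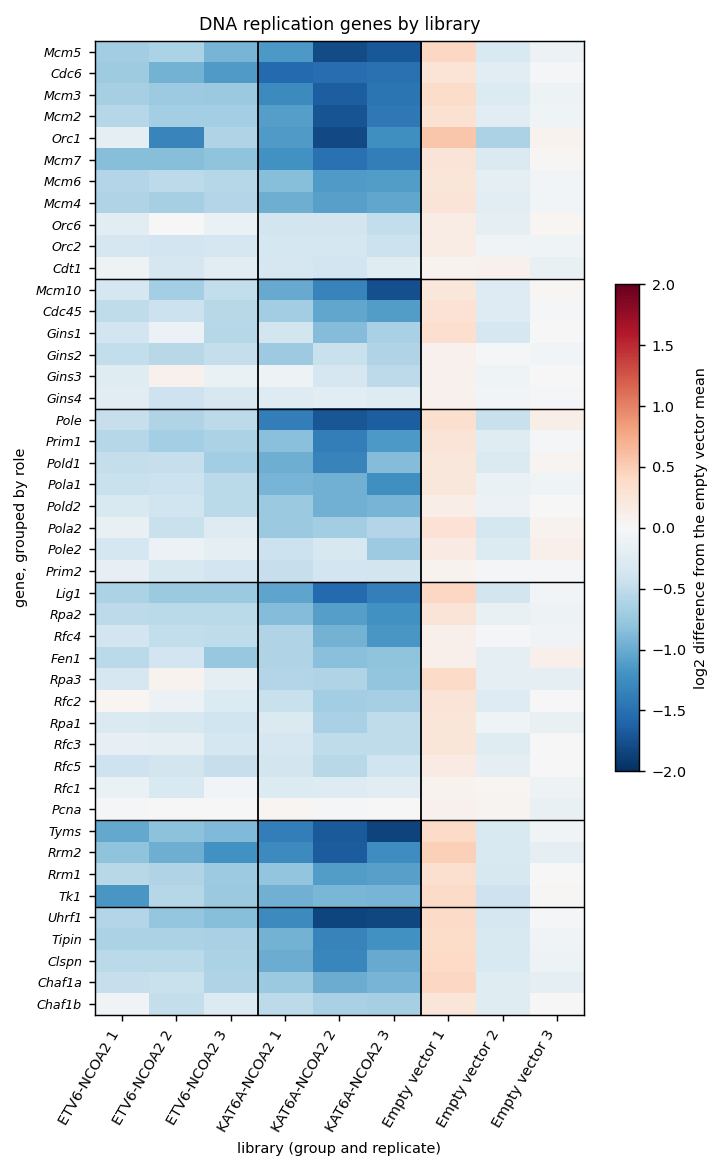
Heat map of the 45 genes (rows, by role) in the 9 libraries (columns), as the log2 difference from the gene's empty vector mean on the log2(value + 1) scale. Most rows are lowest in the KAT6A-NCOA2 columns, and empty vector library 1 is the highest of its group in 44 rows.

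Helicase loading had the largest median difference of the 6 role groups with KAT6A-NCOA2. Of its 11 members, 11 fell with KAT6A-NCOA2 and 6 with ETV6-NCOA2, with median log2 fold changes of -1.36 and -0.64. Mcm5, a subunit of the MCM2-7 ring (GRCm38 chr8:75109569-75128439), had 747, 781 and 633 normalized counts with ETV6-NCOA2, 547, 349 and 374 with KAT6A-NCOA2, and 1611, 981 and 1120 with empty vector. No 2 groups overlapped. Its log2 fold change was -1.54 ± 0.20 (SE, adjusted p = 0.00071) with KAT6A-NCOA2, and -0.75 ± 0.20 with ETV6-NCOA2, which did not pass the test (adjusted p = 0.070).

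Cdc6, the ATPase that recruits the MCM ring to ORC (chr11:98907801-98923940), had 152, 129 and 113 normalized counts with ETV6-NCOA2, 84.5, 86.2 and 87.7 with KAT6A-NCOA2, and 300.1, 212 and 243 with empty vector. Again the groups were fully apart, and the KAT6A-NCOA2 libraries differed little among themselves. Cdc6 fell by 1.52 ± 0.15 on the log2 scale with KAT6A-NCOA2 (adjusted p = 0.00021) and by 0.93 ± 0.15 with ETV6-NCOA2 (adjusted p = 0.015). The ETV6-NCOA2 call was lost without ETV6-NCOA2 library 2 or 3 or without empty vector library 1 or 3, at adjusted p = 0.067, 0.059, 0.053 and 0.059.

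Cdt1, the partner of CDC6 in loading, differed least in the group with KAT6A-NCOA2, while Orc6 (-0.12) differed least with ETV6-NCOA2. Cdt1 had 603, 515 and 559 normalized counts with ETV6-NCOA2, 516, 497 and 549 with KAT6A-NCOA2, and 681, 686 and 584 with empty vector. Its KAT6A-NCOA2 difference of -0.32 ± 0.09 passed the test (adjusted p = 0.026), and its ETV6-NCOA2 difference of -0.22 ± 0.09 did not (adjusted p = 0.20). The KAT6A-NCOA2 call was lost without KAT6A-NCOA2 library 1 or 2 or without empty vector library 1 or 2 (adjusted p = 0.061, 0.10, 0.098 and 0.058).

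All 6 genes of the MCM2-7 ring fell with KAT6A-NCOA2, over a narrow range from -1.54 (Mcm5) to -1.03 (Mcm4 and Mcm6) on the log2 scale. The ring genes were not equally abundant. Per kilobase of the principal transcript, the empty vector level was 819 for Mcm6 and 747 for Mcm3, and 435 for Mcm2, 391 for Mcm7, 366 for Mcm5 and 348 for Mcm4. In the direct fit, Mcm2, Mcm3, Mcm6 and Mcm7 were higher with ETV6-NCOA2 than with KAT6A-NCOA2. ORC genes behaved unevenly: Orc1 fell by 1.39 ± 0.36 on the log2 scale (adjusted p = 0.018), with 27.5, 16.8 and 25.7 normalized counts in KAT6A-NCOA2 libraries against 90.8, 39.2 and 64.8 in empty vector libraries. Orc2 fell by 0.38 and Orc6 by 0.41. The Orc1 call was lost without KAT6A-NCOA2 library 2 or empty vector library 1 or 3 (adjusted p = 0.058 to 0.080), and the Orc6 call without KAT6A-NCOA2 library 3 or empty vector library 1 or 3 (0.056 to 0.073). Orc2 shares 29.8% of its exon bases with Nif3l1 on the opposite strand, and whether reads were counted by strand is not given in the sources used here.

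Helicase activation was more mixed. Of 6 members, 5 fell with KAT6A-NCOA2 and 1 (Gins2) with ETV6-NCOA2, with medians of -0.61 and -0.43. Mcm10, a scaffold that helps to open the loaded helicase, had 227, 180 and 204 normalized counts with ETV6-NCOA2, 143, 114 and 84.2 with KAT6A-NCOA2, and 337, 240.3 and 293 with empty vector. The groups were apart. It fell by 1.37 ± 0.19 on the log2 scale with KAT6A-NCOA2 (adjusted p = 0.0010), while its ETV6-NCOA2 difference was -0.50 ± 0.19 (adjusted p = 0.17).

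Cdc45, which ties the MCM ring to GINS, had 241, 255 and 233 normalized counts with ETV6-NCOA2, 213, 167 and 159 with KAT6A-NCOA2, and 420, 289 and 338 with empty vector. The groups did not overlap. Its KAT6A-NCOA2 log2 fold change was -0.95 ± 0.15 (adjusted p = 0.0018) and its ETV6-NCOA2 value -0.50 ± 0.15 (adjusted p = 0.093).

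Gins4, a GINS subunit, had 428, 372 and 400 normalized counts with ETV6-NCOA2, 417, 425 and 416 with KAT6A-NCOA2, and 531, 482 and 482 with empty vector. The fusion libraries overlapped each other and lay below all empty vector libraries. Its KAT6A-NCOA2 difference of -0.25 ± 0.08 was just past the threshold (adjusted p = 0.043), and it was lost in 6 of the 9 fits that left out a library: without ETV6-NCOA2 library 3 (0.060), KAT6A-NCOA2 library 1, 2 or 3 (0.092, 0.10 and 0.12) and empty vector library 1 or 3 (0.16 and 0.071). Gins3, the GINS subunit that did not pass, had a KAT6A-NCOA2 level of 80.0% of empty vector with a 95% interval of 64.3% to 99.5% (adjusted p = 0.12). Gins2 shares 67.3% of its exon bases with Gse1 on the opposite strand.

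Among the polymerase and primase genes, 8 of 8 members fell with KAT6A-NCOA2 and none passed with ETV6-NCOA2 (median -0.96 and -0.44). Pole, the catalytic subunit of the leading-strand polymerase epsilon (chr5:110286306-110337474), had 308, 279 and 294 normalized counts with ETV6-NCOA2, 162, 128 and 134 with KAT6A-NCOA2, and 530.5, 312 and 457 with empty vector. Its KAT6A-NCOA2 libraries lay far below the rest, and its highest ETV6-NCOA2 library lay just below the lowest empty vector library. The log2 fold change was -1.58 ± 0.17 with KAT6A-NCOA2 (adjusted p = 0.00034) and -0.52 ± 0.17 with ETV6-NCOA2 (adjusted p = 0.12).

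Prim1, the catalytic subunit of primase, had 207, 191 and 197 normalized counts with ETV6-NCOA2, 172, 117 and 138 with KAT6A-NCOA2, and 369, 260.4 and 303 with empty vector. It fell by 1.13 ± 0.16 on the log2 scale with KAT6A-NCOA2 (adjusted p = 0.0011), and the ETV6-NCOA2 value was -0.63 ± 0.16 (adjusted p = 0.062). Its partner Prim2, the large primase subunit, differed less: 335, 303 and 291 with ETV6-NCOA2, 273, 290.1 and 293 with KAT6A-NCOA2, and 397, 368 and 369 with empty vector. All fusion libraries were below all empty vector libraries. The Prim2 log2 fold change was -0.40 ± 0.08 with KAT6A-NCOA2 (adjusted p = 0.0073) and -0.29 ± 0.08 with ETV6-NCOA2 (adjusted p = 0.093).

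Of the 11 genes for the clamp, its loader, the single-strand binding protein RPA and Okazaki fragment joining, 10 fell with KAT6A-NCOA2 and 1 (Rfc5) with ETV6-NCOA2, with medians of -0.60 and -0.33. Lig1, the ligase that seals Okazaki fragments, had 501, 469 and 466 normalized counts with ETV6-NCOA2, 377, 266 and 302 with KAT6A-NCOA2, and 1040, 607 and 754 with empty vector. It fell by 1.32 ± 0.18 on the log2 scale with KAT6A-NCOA2 (adjusted p = 0.00089), and its ETV6-NCOA2 difference was -0.71 ± 0.18 (adjusted p = 0.062).

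Rpa2, a subunit of RPA, had 304, 299 and 298 normalized counts with ETV6-NCOA2, 239, 203 and 188 with KAT6A-NCOA2, and 521, 392 and 404 with empty vector. The groups were apart, and the ETV6-NCOA2 libraries were nearly equal. Its log2 fold change was -1.05 ± 0.12 with KAT6A-NCOA2 (adjusted p = 0.00051). The ETV6-NCOA2 value of -0.53 ± 0.12 did not pass (limma, adjusted p = 0.05004). It passed in 9 of 11 other settings, TMM scaling among them, and in 2 of the 9 fits that left out a library. Its adjusted p over all these fits reached 0.17.

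Pcna, the sliding clamp (chr2:132249162-132253314), was the exception. It had 1660, 1709 and 1692 normalized counts with ETV6-NCOA2, 1752, 1664 and 1695 with KAT6A-NCOA2, and 1806, 1761 and 1540 with empty vector, so the 3 groups overlapped fully. Per kilobase it was the most abundant member, at 1121 with empty vector, where the median member stood at 211.6. The KAT6A-NCOA2 level was 100.3% of empty vector with a 95% interval of 90.1% to 111.6%, and the ETV6-NCOA2 level was 99.4% with an interval of 89.3% to 110.6% (adjusted p = 0.97 and 0.96). The pseudogene Pcna-ps2 has a row of its own at 19.9 to 33.5 normalized counts, and how reads shared by near-identical copies were counted is not given in the sources used here. Fen1, the flap nuclease that trims Okazaki fragments, fell by 0.75 ± 0.16 on the log2 scale with KAT6A-NCOA2 (adjusted p = 0.0081), and 78.8% of its exon bases overlap the antisense gene Gm10143.

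Nucleotide supply had the largest median difference with ETV6-NCOA2: 3 of its 4 members fell with that fusion and 4 of 4 with KAT6A-NCOA2, with medians of -0.87 and -1.20. Tyms, the enzyme that makes dTMP (chr5:30058202-30073617), had 228, 262 and 252 normalized counts with ETV6-NCOA2, 177, 144 and 127 with KAT6A-NCOA2, and 605, 375 and 442 with empty vector. Every group was apart from the others. It fell by 1.64 ± 0.17 on the log2 scale with KAT6A-NCOA2 (adjusted p = 0.00028) and by 0.91 ± 0.17 with ETV6-NCOA2 (adjusted p = 0.026). The ETV6-NCOA2 call was lost without any of the ETV6-NCOA2 libraries 1 to 3 (adjusted p = 0.063, 0.084 and 0.081) and without empty vector library 1 or 3 (0.076 and 0.080).

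Rrm2, the S-phase small subunit of ribonucleotide reductase, had 533, 471 and 402 normalized counts with ETV6-NCOA2, 384, 292 and 394 with KAT6A-NCOA2, and 1294, 756 and 826 with empty vector. The fusion groups came close to each other and both lay well below empty vector. Rrm2 had the largest ETV6-NCOA2 difference of the 45, where it fell by 1.00 ± 0.19 on the log2 scale (adjusted p = 0.029), and it fell by 1.39 ± 0.19 with KAT6A-NCOA2 (adjusted p = 0.0010). The ETV6-NCOA2 call was lost without ETV6-NCOA2 library 2 or 3 (adjusted p = 0.094 and 0.10) and without empty vector library 1 or 3 (0.068 and 0.072).

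Tk1, the thymidine salvage kinase, had 119, 181 and 161 normalized counts with ETV6-NCOA2, 139, 142 and 141 with KAT6A-NCOA2, and 353, 203 and 273 with empty vector. It differed from the other 3 in that the fusion groups overlapped. Its log2 fold change was -0.93 ± 0.20 with KAT6A-NCOA2 (adjusted p = 0.0078) and -0.83 ± 0.20 with ETV6-NCOA2 (adjusted p = 0.055).

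All 5 genes of chromatin assembly, methylation upkeep and fork protection fell with KAT6A-NCOA2 and none passed with ETV6-NCOA2 (median -1.10 and -0.57). Uhrf1, which brings the maintenance DNA methyltransferase to new DNA (chr17:56303321-56323486), had 376, 330.1 and 312 normalized counts with ETV6-NCOA2, 232, 158 and 159 with KAT6A-NCOA2, and 737, 447 and 550 with empty vector. The groups were apart. Its KAT6A-NCOA2 difference was the largest of the 45: it fell by 1.65 ± 0.19 on the log2 scale (adjusted p = 0.00046), and the ETV6-NCOA2 value was -0.74 ± 0.19 (adjusted p = 0.068).

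Tipin, a fork protection factor, had 296, 295 and 293 normalized counts with ETV6-NCOA2, 237, 181 and 199 with KAT6A-NCOA2, and 594, 374 and 437 with empty vector. It fell by 1.16 ± 0.16 on the log2 scale with KAT6A-NCOA2 (adjusted p = 0.00090), and the ETV6-NCOA2 value was -0.64 ± 0.16 (adjusted p = 0.059). Chaf1b, a subunit of the histone chaperone CAF-1, differed least here, with 508, 386 and 444 with ETV6-NCOA2, 373, 341 and 337 with KAT6A-NCOA2, and 631, 454 and 537 with empty vector. The ETV6-NCOA2 range overlapped the empty vector range. The Chaf1b log2 fold change was -0.61 ± 0.13 with KAT6A-NCOA2 (adjusted p = 0.0076) and -0.27 ± 0.13 with ETV6-NCOA2 (adjusted p = 0.27). Its partner Chaf1a fell by 0.89 on the log2 scale with KAT6A-NCOA2, with 52.5% of its exon bases shared with Ubxn6 on the opposite strand.

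**Figure D3:**
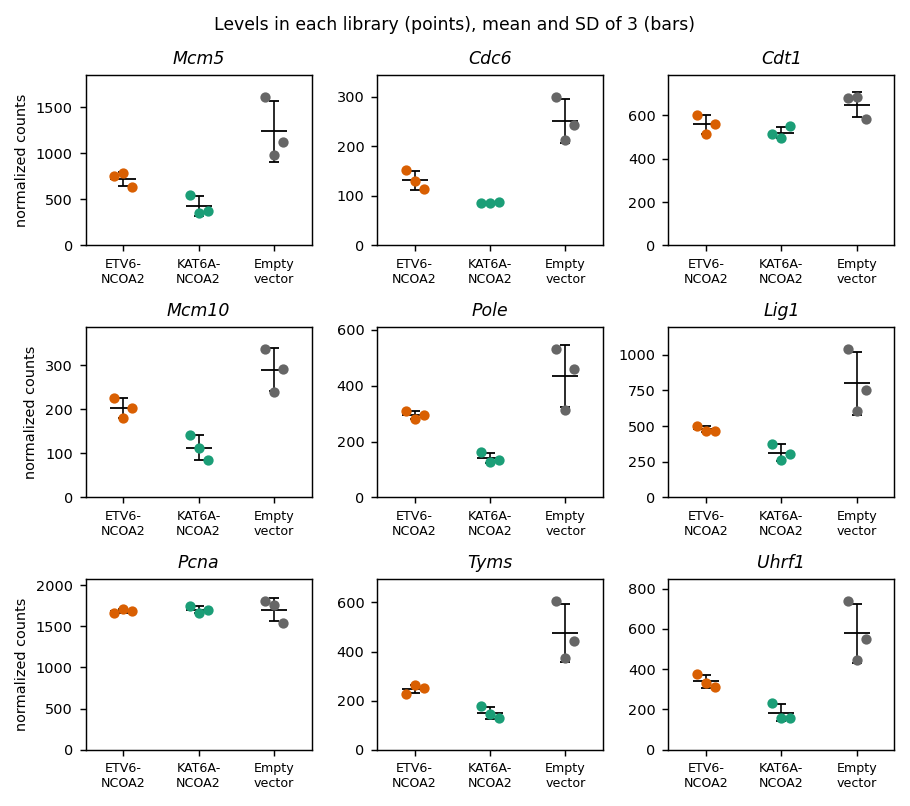
Normalized counts of 9 of the named genes in each library (points), with the mean and SD of 3 (bars); each axis starts at 0. Mcm5, Cdc6, Lig1, Tyms and Uhrf1 show 3 separate groups with KAT6A-NCOA2 lowest, and the Pcna points lie between 1540 and 1806 in all groups.

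Within complexes, the subunits did not move by equal amounts, which is described here without a test of the differences. For this the remaining subunits of each complex were added. In ORC, Orc1, Orc2 and Orc6 fell with KAT6A-NCOA2, while Orc3, Orc4 and Orc5 had log2 differences of -0.12, -0.05 and 0.04 that did not pass. In polymerase epsilon, Pole fell by 1.58 and the second subunit gene Pole2 by 0.49, and the histone-fold subunits Pole3 and Pole4 had -0.10 and -0.13, which did not pass. The Pole2 call was kept in 2 of 9 fits, without ETV6-NCOA2 library 1 and without empty vector library 2, and was lost when any other library was left out (adjusted p = 0.052 to 0.15). In polymerase delta, the catalytic Pold1 fell by 1.06 and Pold2 by 0.87, Pold3 had -0.05 without passing, and Pold4 rose by 0.27 ± 0.07 (adjusted p = 0.019). Pold4 had 1101 ± 36.7 normalized counts with KAT6A-NCOA2 and 914 ± 61.9 with empty vector (SD, n = 3), and its call was lost without KAT6A-NCOA2 library 2 or empty vector library 1 or 3 (adjusted p = 0.061 to 0.079).

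Ribonucleotide reductase gave the widest span, 1.68 on the log2 scale with KAT6A-NCOA2. Rrm1 fell by 1.00 and Rrm2 by 1.39, while Rrm2b, the small subunit used outside S phase and induced by p53, had 0.28 ± 0.10 (adjusted p = 0.051). RFC spanned -0.90 (Rfc4) to -0.25 (Rfc1), RPA -1.05 (Rpa2) to -0.48 (Rpa1), and GINS -0.63 (Gins1) to -0.25 (Gins4). The calls of Rfc1, Rpa1 and Gins1 were lost in 5, 1 and 5 of the 9 fits that left out a library, all of them in the fit without KAT6A-NCOA2 library 2, with adjusted p up to 0.13, 0.059 and 0.17. The MCM2-7 ring spanned 0.51 over 6 subunits, all of them lower.

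**Figure D4:**
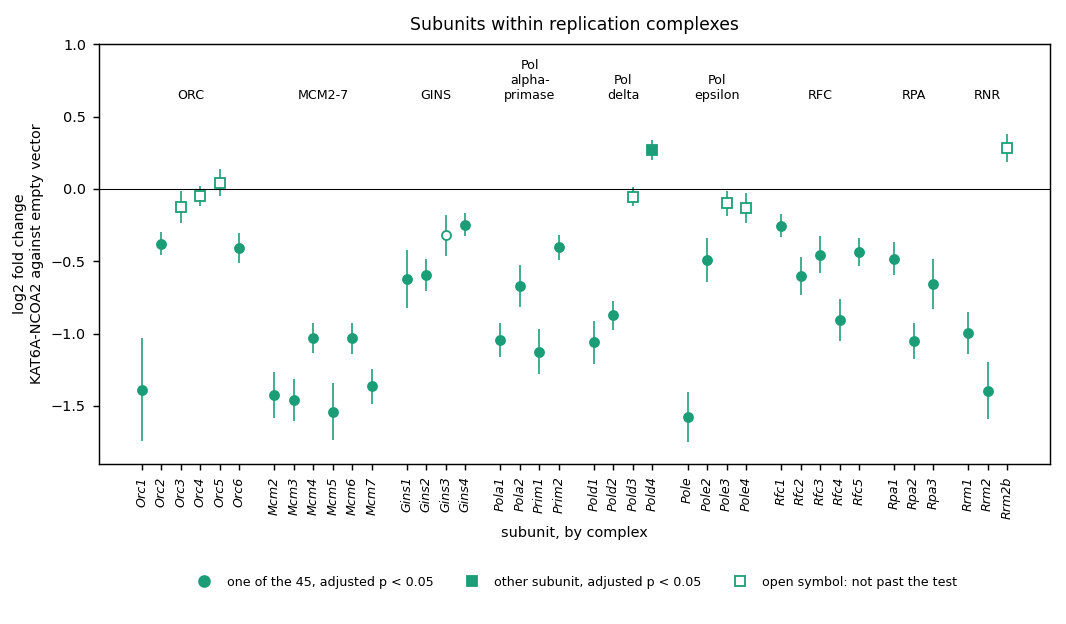
Log2 fold change and standard error of each subunit with KAT6A-NCOA2 against empty vector, by complex; circles are among the 45 genes, squares are added subunits and open symbols did not pass the test. The 6 MCM2-7 genes lie between -1.54 and -1.03, and in ribonucleotide reductase Rrm2 lies at -1.39 and Rrm2b at 0.28.

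The fusions were also compared directly. Of the 45 members, 10 were higher with ETV6-NCOA2 than with KAT6A-NCOA2 and none was lower, against 2.84% of all genes called higher, 0.247% called lower and 3.09% called in either direction. The 10 were Mcm2, Mcm3, Mcm6, Mcm7, Mcm10, Pola1, Pold2, Pole, Tyms and Uhrf1. The members' median log2 fold change was 0.44 (135.8% of the KAT6A-NCOA2 level), beside -0.01 over all genes, and 43 differences were above 0. Every ETV6-NCOA2 library lay above every KAT6A-NCOA2 library for 29 members, against 14.4% of all genes.

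The same-numbered libraries of the fusion groups deviated together, though the labels do not say what they share. Reading them as pairs rests on these same values, so adjusted p-values with the block may be too small. With the replicate number as a block over all 9 libraries, empty vector included, 22 members were higher, against 5.32% of all genes. Pole differed most, by 1.06 ± 0.17 on the log2 scale (adjusted p = 0.0097, and 0.0015 with the block). Uhrf1 differed by 0.91 ± 0.19 (0.030, and 0.0015 with the block), Mcm10 by 0.86 ± 0.19 (0.037, and 0.0081) and Tyms by 0.73 ± 0.17 (0.050, and 0.023). Mcm5 had a log2 difference of 0.79 ± 0.20 that passed with the block and not without it (adjusted p = 0.060, and 0.0076 with the block). Cdc6, Prim1, Lig1, Rpa2, Tipin and Chaf1b likewise passed in the blocked fit and not in the unblocked one.

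For other members the fusions were close to each other. Orc2, Rfc5 and Gins2 had log2 differences of 0.03 ± 0.08, 0.02 ± 0.10 and 0.08 ± 0.11 between ETV6-NCOA2 and KAT6A-NCOA2, and each was called lower with both fusions against empty vector. Their ETV6-NCOA2 calls were kept in 1, 1 and 2 of the 9 fits that left out a library: all 3 were kept without empty vector library 2 and lost without any ETV6-NCOA2 library or empty vector library 1 or 3 (adjusted p up to 0.16, 0.17 and 0.15). Tk1 had 0.11 ± 0.20 (adjusted p = 0.82). The unblocked count depended on single libraries: it was 1, 1 and 2 without ETV6-NCOA2 library 1, 2 or 3, 13, 0 and 1 without KAT6A-NCOA2 library 1, 2 or 3 (24 with an unadjusted p under 0.05 without library 2; limma), and 18, 20 and 4 without empty vector library 1, 2 or 3. Pole kept the call in 8 of these 9 fits and had an adjusted p of 0.054 without KAT6A-NCOA2 library 2. The calls of Uhrf1, Mcm10 and Tyms were each lost in 6, without ETV6-NCOA2 library 1, 2 or 3, KAT6A-NCOA2 library 2 or 3 or empty vector library 3 (adjusted p up to 0.14, 0.13 and 0.20).

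A longer list of other replication genes followed the members in part. Of 42 such genes, 27 fell and 1 (Pold4) rose with KAT6A-NCOA2, and 9 fell with ETV6-NCOA2, with medians of -0.47 and -0.34. Shmt1, which feeds one-carbon units to thymidylate synthesis, averaged 150.3 ± 6.98 normalized counts with ETV6-NCOA2, 76.5 ± 8.96 with KAT6A-NCOA2 and 352 ± 77.9 with empty vector (SD, n = 3 each). It fell by 2.17 ± 0.16 on the log2 scale with KAT6A-NCOA2 (adjusted p = 5.5e-05) and fell by 1.20 ± 0.16 with ETV6-NCOA2 (adjusted p = 0.0080). Hells, a chromatin remodeller of replicating heterochromatin, fell by 1.58 with KAT6A-NCOA2 and 0.84 with ETV6-NCOA2, and the ETV6-NCOA2 call was lost without any ETV6-NCOA2 library or empty vector library 1 or 3 (adjusted p = 0.055 to 0.082). Esco2, the S-phase cohesin acetyltransferase, fell by 1.39 and Ticrr, an origin-firing factor, by 1.31 with KAT6A-NCOA2, and neither passed with ETV6-NCOA2 (-0.37 and -0.64).

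Paralogs with roles outside S phase were listed beside them. Of 10 such genes, 2 (20%) fell with KAT6A-NCOA2, where 13.7% of all genes were called lower. These were the MCM paralog Mcm8 (-0.41 ± 0.12) and the repair ligase Lig3 (-0.47 ± 0.12). Both calls were lost without KAT6A-NCOA2 library 2 or 3 or empty vector library 1 or 3, and that of Mcm8 also without KAT6A-NCOA2 library 1 (adjusted p up to 0.080 and 0.082). None passed with ETV6-NCOA2 (2 with an unadjusted p under 0.05 by limma). The list's medians were 0.10 and 0.09. Tk2, the mitochondrial thymidine kinase, had a KAT6A-NCOA2 difference of 0.16 ± 0.09 that did not pass (adjusted p = 0.23).

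Among 20 genes of E2F factors, pocket proteins and S-phase cyclins, 12 fell with KAT6A-NCOA2 and 2 (Tfdp1 and Cdk1) with ETV6-NCOA2, with medians of -0.39 and -0.24. Both ETV6-NCOA2 calls were lost without ETV6-NCOA2 library 2 or 3 or empty vector library 1 or 3, that of Tfdp1 also without ETV6-NCOA2 library 1 and that of Cdk1 also without KAT6A-NCOA2 library 2 or 3 (adjusted p up to 0.084 and 0.12). Ccna2, the S-phase cyclin A, fell by 1.17 ± 0.16 on the log2 scale with KAT6A-NCOA2 and E2f2, an activating E2F, by 1.02 ± 0.20 (adjusted p = 0.00097 and 0.0056). E2f1, the best known activator of replication genes, averaged 799 ± 40.8 normalized counts with ETV6-NCOA2, 827 ± 48.2 with KAT6A-NCOA2 and 792 ± 79.6 with empty vector, and passed in neither comparison (adjusted p = 0.94 and 0.61). Of 20 mitosis genes, 19 fell with KAT6A-NCOA2 and 3 with ETV6-NCOA2, where 13.7% and 1.82% of all genes were called lower. The ETV6-NCOA2 calls (Ccnb1, Mad2l1 and Kif20a) were each lost in 7 of the 9 fits that left out a library (limma, adjusted p up to 0.18, 0.16 and 0.13). The mitosis medians of -0.96 and -0.53 were close to the replication members' -0.93 and -0.50. Plk1, the mitotic kinase, fell by 1.37 ± 0.21 and Aurkb, the kinase of the chromosomal passenger complex, by 1.31 ± 0.19 with KAT6A-NCOA2.

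Markers of maturing cell types moved with the same groups. Over all genes tested, 13.7% were called lower with KAT6A-NCOA2 and 1.82% with ETV6-NCOA2. Of 10 granulocyte markers, all 10 fell with KAT6A-NCOA2 and 4 with ETV6-NCOA2. The 10 were listed as precursor markers, but S100a8, S100a9 and Ltf are among them, so the list is not read as precursors alone. The list was not of 1 direction with ETV6-NCOA2: S100a8 and S100a9 had log2 differences of 1.16 and 1.33 that did not pass (adjusted p = 0.071 and 0.11), with every ETV6-NCOA2 library above every empty vector library. The summed level of the 10 was 5848 to 9979 normalized counts with ETV6-NCOA2, 1039 to 1778 with KAT6A-NCOA2 and 13701 to 20158 with empty vector. With ETV6-NCOA2 this sum joins genes that lay above empty vector and genes that lay below it. All 10 mast cell and basophil markers fell with KAT6A-NCOA2 and 6 with ETV6-NCOA2. Of the 6, Prss34 kept its call in all 9 fits that left out a library. Mcpt8 and Hdc each lost it in 4 fits, and Fcer1a, Ms4a2 and Cd200r3 each in 5. The sums were 24086 to 38707 with ETV6-NCOA2, 9883 to 27195 with KAT6A-NCOA2 and 64923 to 123959 with empty vector. Both lists had their lowest mean sum with KAT6A-NCOA2, and the mast cell ranges of the fusion groups overlapped.

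Of 8 erythroid precursor markers tested, 5 fell with KAT6A-NCOA2 and 3 with ETV6-NCOA2, and the summed level of 9 was 1139 to 1841 normalized counts with ETV6-NCOA2, 1092 to 1787 with KAT6A-NCOA2 and 2201 to 4591 with empty vector. Of 8 stem and progenitor markers, 2 fell with ETV6-NCOA2 (5 were below 0) and 4 fell with KAT6A-NCOA2 (8 were below 0). Of 10 macrophage markers, 4 rose with KAT6A-NCOA2 and 1 (Cd14) with ETV6-NCOA2, where 11.6% and 1.02% of all genes were called higher. The ETV6-NCOA2 call of Cd14 was lost in 7 of the 9 fits that left out a library (limma, adjusted p = 0.054 to 0.18). The KAT6A-NCOA2 call of Mertk was lost in 4. None of the markers was at 0 in a whole group. The part of these markers in the replication results was not tested.

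**Figure D5:**
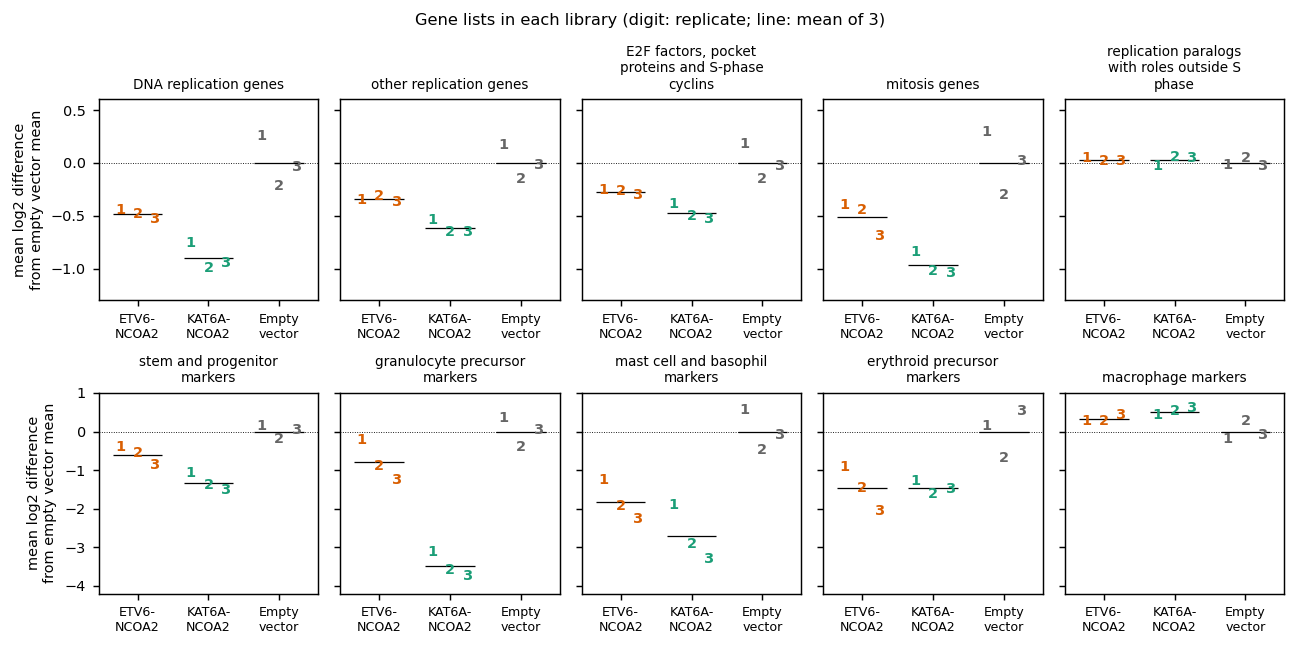
Mean log2 difference from the empty vector mean over each gene list (vertical axis), for each library (numerals 1 to 3 mark the library) by group. In the replication panel the libraries stand at -0.53 to -0.44 with ETV6-NCOA2, -0.99 to -0.76 with KAT6A-NCOA2 and -0.22 to 0.26 with empty vector; the upper and lower rows have different scales.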

How the data were processed

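Gene-level reads of 9 poly-A RNA-seq libraries were the starting point. Per the submitters' processing notes, the authors used cutadapt, STAR 2.4.2a, HTSeq and DESeq2 with GRCm38. The deposited signal values are normalized counts; per the file headers, the table has a column for each library. In each library 100% of values were whole multiples of a step within 0.01 normalized counts, so reads were recovered (17070291 to 20377795 per library) for the count tests.

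Values were tested with limma 3.58.1 (R 4.3.3) on log2(value + 1), with all 9 libraries in the fit, genes of at least 10 in at least 3 libraries (3516 left out), and Benjamini-Hochberg adjustment over 13750 genes. A fold change is on the log2(value + 1) scale, which understates the change of low genes. Alternatives were TMM and upper-quartile scaling, pseudocounts 0.1 and 10, no filter and a filter of 30, DESeq2 1.42.0, edgeR 4.0.16 and limma-voom on recovered reads, only 6 libraries, a replicate block, and leaving out each library. On data simulated with 200 genes changed 2-fold, the test found 82.1% with 8.05% false among calls for ETV6-NCOA2 against empty vector. The shares were 79.3% and 5.42% for KAT6A-NCOA2 against empty vector, and 76.6% and 5.03% for ETV6-NCOA2 against KAT6A-NCOA2. Genes were drawn independently, so deviations that many genes share within a library, as in empty vector library 1, were not simulated. Both shares may therefore differ in the real libraries.

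The members and lists were chosen with earlier results of these data known. Full values are given for the 2 members of each of the 6 role groups with the largest KAT6A-NCOA2 difference and for the member with the smallest; of the other lists, up to 4 genes past the test with the largest difference are named, and E2f1, Tk2 and the subunits of complexes were added after their values were seen. Same-numbered libraries correlated at 0.31, 0.05 and -0.08 (ETV6-NCOA2 with empty vector), 0.39, 0.17 and -0.03 (KAT6A-NCOA2 with empty vector) and 0.30, 0.20 and 0.29 (ETV6-NCOA2 with KAT6A-NCOA2) after removing group means. Replicate numbers were therefore read as pairs between the fusions only. The labels do not say what a replicate number shares, and this reading came from the same values that the blocked fit tested. The adjusted p-values of the blocked fit may therefore be too small. The blocked fit still held all 9 libraries, so its direct comparison also used the same-numbered empty vector libraries. No blocked fit of the fusion libraries alone was run. Gene positions and transcript lengths are from GENCODE mouse release 21, whose symbols match 16753 genes of the table. Of the 45 members, 16 share exon bases with another gene, 14 of them with a gene on the opposite strand.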

Additional observations from a re-analysis of the deposited data

How the results depend on the processing

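The direction of every called member held under all alternatives run, and 33 of the 43 members lower with KAT6A-NCOA2 were called in all of them; 0 of the 11 ETV6-NCOA2 calls and 0 of the 10 direct calls were. Scaling moved the median of all genes by no more than 0.1 on the log2 scale. Against empty vector, the genes changed with ETV6-NCOA2 numbered 390, and 1016 by DESeq2, 1255 with the replicate block and 174 with only 6 libraries, with 11, 27, 30 and 3 members lower; edgeR called 20 members. In the direct comparison 425 genes changed, and 793 by DESeq2, 983 with the replicate block and 823 with only 6 libraries, with 10, 17, 22 and 19 members higher; edgeR called 6 and limma-voom 3. With the block, 43 members were lower with KAT6A-NCOA2 and 4137 genes changed. Same-numbered fusion and empty vector libraries correlated for number 1 (0.31 with ETV6-NCOA2 and 0.39 with KAT6A-NCOA2) but not for number 3 (-0.08 and -0.03). Whether they are pairs is not settled by this, so the block is not read as a paired result there. Not every empty vector library correlated best with its own number. Leaving out single libraries gave 61 to 1765 changed genes and 0 to 29 members lower with ETV6-NCOA2, 1779 to 4320 genes and 34 to 42 members lower with KAT6A-NCOA2, and 163 to 913 genes and 0 to 20 members higher in the direct comparison. The members' median stayed within -0.62 to -0.37, -1.08 to -0.81 and 0.38 to 0.53. The only sign changes among named members were uncalled values near 0. Pcna with KAT6A-NCOA2 ranged from -0.066 to 0.049 over the fits that left out a library, and was -0.0020 with TMM, -0.0029 by DESeq2, -0.0069 by edgeR, -0.0046 by limma-voom, -0.016 without KAT6A-NCOA2 library 1 and -0.066 without empty vector library 3. Pcna with ETV6-NCOA2 ranged from -0.080 to 0.035 over such fits, and was 0.0021 without ETV6-NCOA2 library 1, 0.035 without empty vector library 1 and 0.017 without empty vector library 2. In the direct comparison Pcna ranged from -0.030 to 0.0067 (without KAT6A-NCOA2 library 1) and Tk1 from -0.020 (without ETV6-NCOA2 library 2) to 0.28. The causes of these changes were not tested. Detection of differences smaller than 2-fold was not simulated.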

Other observations

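Among the 37 members with a listed promoter, 13 held one of the E2F forms in the promoter nearest the annotated start and 24 did not. The median log2 fold change with KAT6A-NCOA2 was -1.06 in the 13 and -0.90 in the 24, and with ETV6-NCOA2 -0.55 and -0.50. The ranges with KAT6A-NCOA2 were -1.54 to -0.32 and -1.65 to 0.00, so they overlapped widely. A CCAAT box was present in 9 of the 13 and 16 of the 24. This was looked at with the values known and was not tested.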
